A study of Sus scrofa with 9 samples.

Results

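The 62 genes described here had their highest level in the abdominal aorta of Tibetan minipigs fed a high-fat diet for 8 weeks. They were chosen from the 21357 gene rows of the expression table by their own values. Every library of the 8-week group had to lie above every library of the other groups, the 8-week mean had to be at least 2 times each of the other means, and that mean had to be at least 1 FPKM (a read level corrected for gene length and sequencing depth). Of all rows, 261 (1.22%) met the first demand, 211 of these also met the demand on level, and 75 met all of them. A further 13 were set aside by name because the rule leaves out certain families (heat shock proteins, DNAJ co-chaperones, CCN proteins, collagens, chemokines, solute carriers, BAG3 and the best known immediate early genes), which left 62 rows, or 0.290% of the table. They are called 8-week genes below. Since the levels in all 9 libraries chose them, their height at 8 weeks is a description and carries no test.

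The libraries came from male Tibetan minipigs, a small pig breed, in 3 groups of 3 pigs. The NC group had a normal diet for 24 weeks and was labelled normal control, the H8 group had a high-fat diet for 8 weeks and was labelled hypercholesterolemia, and the H24 group had a high-fat diet for 24 weeks and was labelled atherosclerosis. The pigs of the 24-week experiment were 3 to 4 months old when bought, and their high-fat diet also held cholesterol and egg yolk powder. The age and the diet's composition for the H8 pigs are not given in the sources used here. No group had the normal diet for 8 weeks, so 8 weeks of the diet cannot be told apart from the age of those pigs or the time at which they were sampled.

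Cells meet sudden stress with genes that are switched on within minutes and fall silent again soon after. Immediate early genes, such as the subunits of the transcription factor AP-1, answer growth factors, stretch and injury, and many of their partners shut the same signal down again. Heat shock genes are driven by the factor HSF1 when proteins unfold, and their products hold unfolded proteins or refold them. In the vessel wall both programmes are known in smooth muscle cells, endothelial cells and fibroblasts.

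Total estimated counts lay between 44094263 and 75787978 per library, so depth did not limit most of these genes. The lowest count of an 8-week gene in an H8 library was 9 (CLDN6), and 8 of the 62 had fewer than 100 counts in at least 1 H8 library. Smooth muscle marker genes (ACTA2, MYH11 and 8 others) summed to between 10465 and 14244 FPKM in NC and H8, as in a vessel rich in smooth muscle. Among the H24 libraries replicate 3 stood apart, with a correlation of only 0.876 with replicate 2 (Pearson's r across genes), 1814 FPKM of smooth muscle markers and 1997 FPKM of macrophage markers. In bulk tissue, fewer cells of a type and less RNA per cell cannot be told apart.

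The 8-week genes were uneven in size and in how the 3 H8 pigs shared them. The ratio of the H8 mean to the larger of the other means had a median of 2.75, was under 3 for 35 genes and at least 4 for 16, and reached 15.0 (LRRN1) among genes with more than 3 counts in the other groups. Mean levels in H8 ran from 1.02 to 937 FPKM with a median of 11.3, and 15 genes had a mean under 2 FPKM. The highest H8 library was a median of 2.42 times the lowest, and at least 3 times it for 22 genes.

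H8 replicate 2 carried the largest part of the pattern. In 39 of the 62 genes (62.9%) it was the highest H8 library, against 25.9% of the 11900 rows with a mean of at least 1 FPKM in any group. The median 8-week gene stood at 2.49, 4.25 and 2.19 times the NC mean in H8 replicates 1, 2 and 3. In H24 replicates 1, 2 and 3 the same median was 1.0, 1.04 and 0.789, and in the NC libraries it lay between 0.968 and 1.05. All 3 H8 pigs were thus above the other 6, as the rule demands, but by different distances. In 13 genes the lowest H8 library was at least 1.5 times the highest of the other libraries, and in 8 it was less than 1.1 times it.

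**Figure D1:**
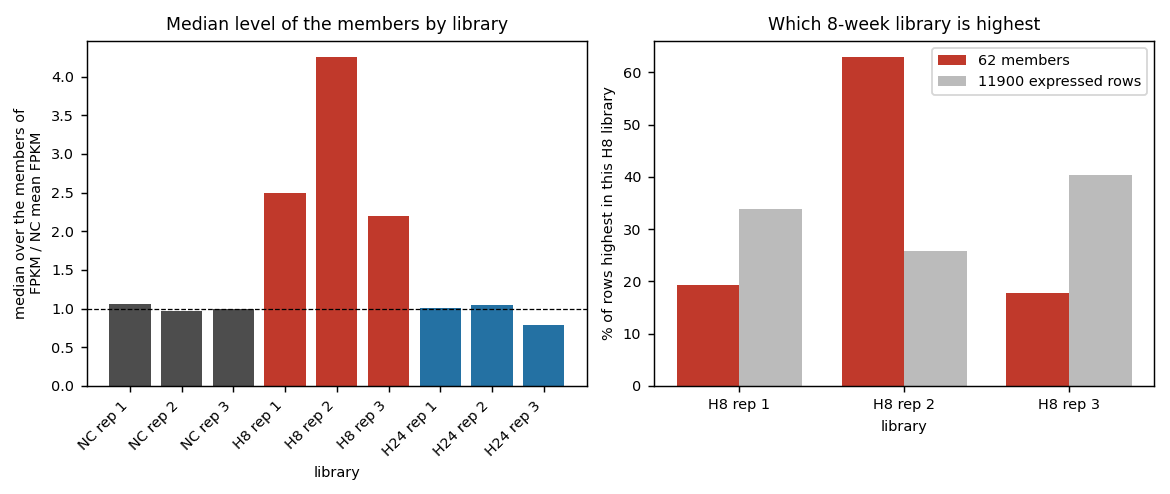
Left, the median over the 62 genes of FPKM divided by the NC mean FPKM, for each of the 9 libraries (grey NC, red H8, blue H24), with the dashed line at 1. Right, the percent of the 62 genes (red) and of 11900 expressed rows (grey) whose highest H8 value is in each H8 library; replicate 2 holds 62.9% of the 62 genes and 25.9% of the expressed rows.

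**Figure D2:**
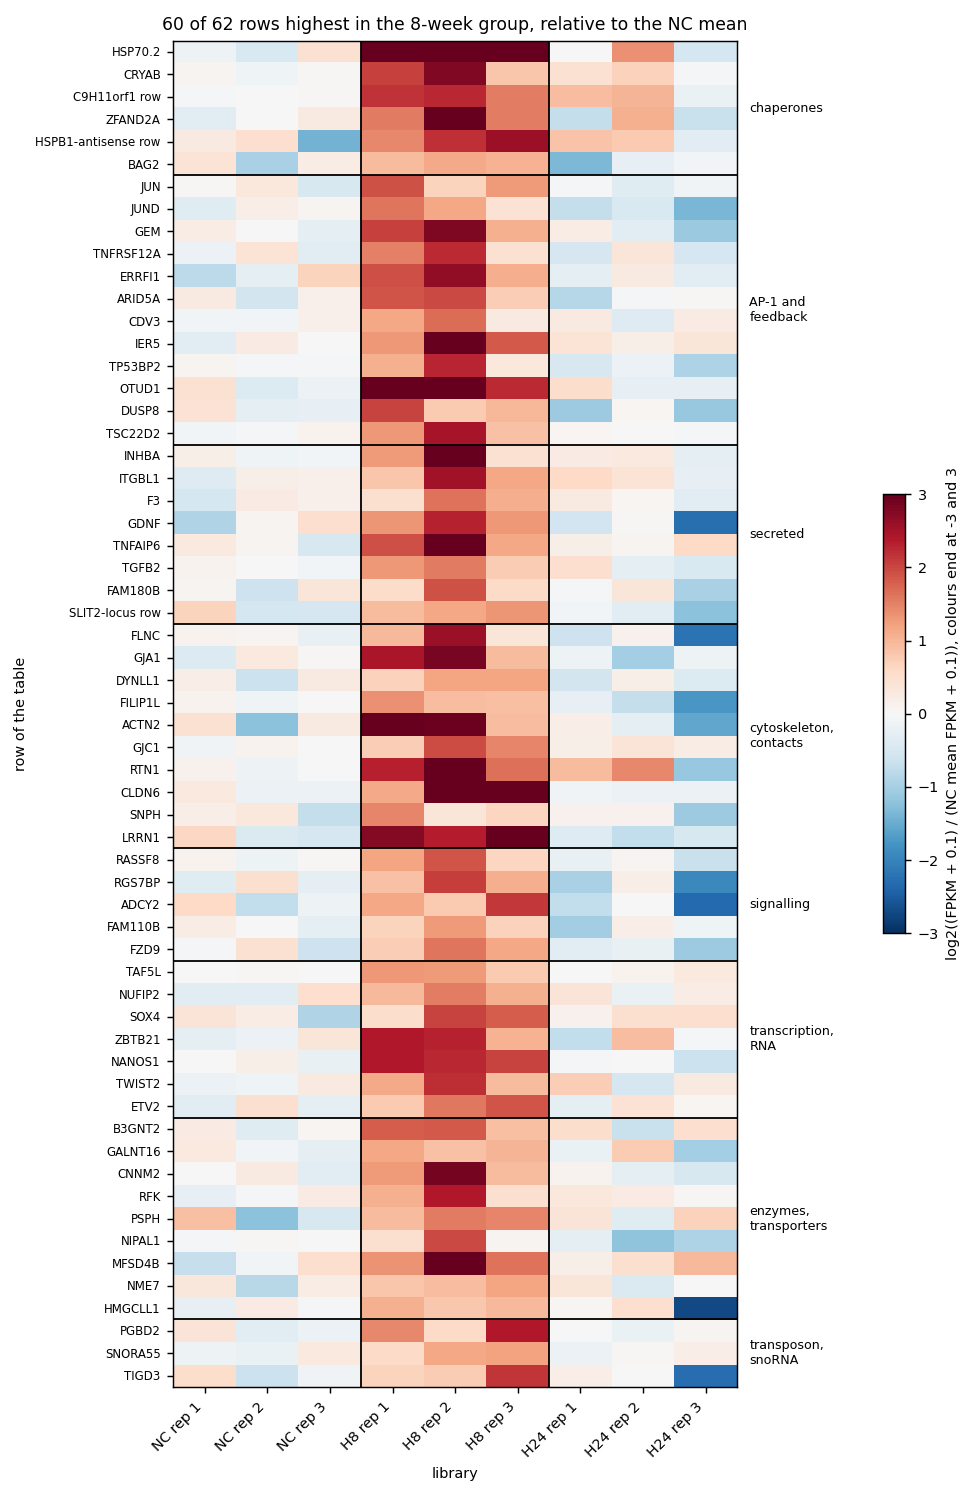
Level of 60 of the 62 8-week genes (rows, grouped by role) in each library (columns), as log2 of FPKM + 0.1 over the NC mean + 0.1, with colours ending at -3 and 3. The 3 H8 columns are red in every row by the choice of genes, most deeply in replicate 2, and blue cells are most frequent in H24 replicate 3, which held the lowest of all 9 values for 27 of the 62 genes.

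The first role is that of stress chaperones and their partners, with 6 rows. HSP70.2, an inducible heat shock protein 70, is one of 6 rows without a name of their own in the table, and was named here through its identifier (ENSSSCG00000029160, chromosome 7, 23915072 to 23929754 on Sscrofa11.1, plus strand) after its values were seen. It was at 40.7, 33.2 and 62.2 FPKM in NC replicates 1 to 3, at 380, 803 and 927 in H8, and at 45.5, 117 and 31.4 in H24. Its lowest H8 library was 3.25 times the highest of the other libraries. The inducible HSP70 genes are near-identical copies, and this row lies within the RefSeq interval of HSPA1L, so how reads were shared among the copies is uncertain.

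CRYAB, the small heat shock protein αB-crystallin, which holds desmin and actin filaments together under stress, was at 148, 128 and 142 FPKM in NC, at 581, 956 and 250 in H8 and at 190, 224 and 134 in H24. ZFAND2A (AIRAP), which adapts the proteasome to misfolded proteins, was at 4.46, 5.63 and 6.86 FPKM in NC, 16.9, 60.0 and 16.5 in H8 and 3.42, 11.9 and 3.53 in H24. Both stood highest in H8 replicate 2, and the other H8 libraries of ZFAND2A lay close together. BAG2, a co-chaperone of HSP70, was low but even, at 3.15, 3.61 and 3.39 FPKM in H8 and at most 2.13 in the other groups.

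The remaining rows of this role share their place in the genome with a chaperone gene. A row on the plus strand of chromosome 9 (39623884 to 39660648), described in the table as the C11orf1 homolog, overlaps CRYAB on the opposite strand and reached an H8 mean of 57.4 FPKM against 14.1 in NC and 22.5 in H24. An unnamed row at 8.77 FPKM in H8 lies on the strand opposite to HSPB1 on chromosome 3 (10038386 to 10039549), and HSPB1 is itself one of the rows set aside by name. Whether the counting used the strand is not given in the sources used here, so reads of these rows and of CRYAB or HSPB1 cannot be told apart.

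The role named after AP-1 subunits and regulators of growth signals was the largest, with 12 rows and the highest level of all. It is a mixed role: only JUN and JUND are AP-1 subunits, and rows were assigned to it with their values known. JUN, the AP-1 subunit that gives the family its name, was at 375, 456 and 259 FPKM in NC, 1356, 578 and 879 in H8 and 350, 280 and 337 in H24. JUND, its more constant relative, was at 137, 202 and 187 FPKM in NC, 539, 391 and 236 in H8 and 108, 129 and 67.4 in H24. Both were highest in H8 replicate 1, not 2, and both are rows that the table leaves unnamed, identified here after their values were seen (ENSSSCG00000031912 and ENSSSCG00000031657). JUN was on the list of names to leave out and stayed in only because its row carried no name.

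Genes that brake signalling stood beside them. GEM, a small GTPase that restrains calcium channels, was at 98.8, 83.5 and 70.0 FPKM in NC, 352, 587 and 176 in H8 and 98.1, 66.9 and 38.7 in H24. ERRFI1 (MIG6), an inhibitor of the EGF receptor, was at 25.1, 36.0 and 68.8 FPKM in NC, 165, 274 and 92.6 in H8 and 35.2, 52.2 and 34.5 in H24. For both, the highest library outside H8 stayed clearly below the lowest one inside it, 1.78 times lower for GEM and 1.35 times for ERRFI1. OTUD1, a deubiquitinase that curbs inflammatory signals, had one of the widest gaps of all: it was at 4.04, 2.20 and 2.57 FPKM in NC, at 35.0, 31.7 and 14.3 in H8, and at 4.25, 2.46 and 2.44 in H24.

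TNFRSF12A (Fn14), the receptor of the cytokine TWEAK, was at 57.9, 87.1 and 51.6 FPKM in NC, 188, 307 and 89.9 in H8 and 46.5, 84.4 and 45.9 in H24. Its gap was narrow, since H8 replicate 3 at 89.9 FPKM was 1.03 times NC replicate 2. IER5, a primary response gene that works with HSF1, was at 26.5, 101 and 38.7 FPKM in H8 and at 8.52 to 14.2 in the other libraries. ARID5A, an RNA-binding protein that stabilises IL-6 mRNA, was at 91.9, 97.7 and 41.0 FPKM in H8 and at 13.6 to 29.7 elsewhere. DUSP8, a phosphatase of JNK and p38 kinases, had H8 values of 37.7, 15.7 and 18.3 FPKM, TP53BP2 (ASPP2), a partner of p53, had 31.9, 75.1 and 19.1, and TSC22D2, a leucine zipper protein, had 10.4, 23.6 and 7.71. CDV3 was the closest call of the 62, with 33.4 FPKM in H8 replicate 3 and also 33.4 in H24 replicate 1, a difference lost in rounding.

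**Figure D3:**
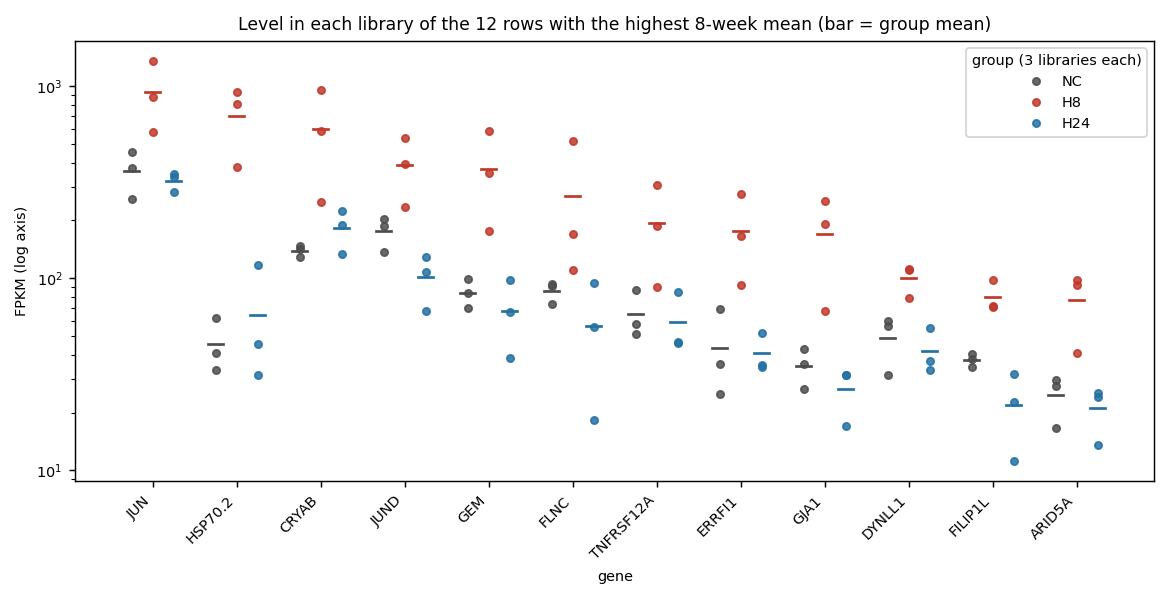
FPKM on a log axis in each library (points, 3 per group) and group means (bars) for the 12 of the 62 genes with the highest H8 mean. No H8 point lies below an NC or H24 point of the same gene, by the choice of genes, while the distance between them ranges from 1.03 times for TNFRSF12A to 3.25 times for HSP70.2.

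The third role, secreted factors and matrix-binding proteins, had 8 rows, and 7 of these were highest in H8 replicate 2. INHBA, whose product forms activin A, was at 7.78, 6.31 and 6.53 FPKM in NC, 16.8, 78.9 and 9.42 in H8 and 8.11, 8.45 and 5.64 in H24. A single pig thus made most of its H8 mean of 35.0 ± 38.2 FPKM (SD, n = 3). TGFB2, a transforming growth factor that drives matrix production, was lower and more even, at 10.5, 12.6 and 7.18 FPKM in H8 and 3.04 to 6.03 elsewhere. GDNF, a growth factor of neurons that signals through RET, was at 14.2, 27.9 and 13.7 FPKM in H8 and at 1.08 to 7.88 elsewhere.

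F3, tissue factor, which starts blood clotting, was at 6.75, 11.6 and 10.9 FPKM in NC, 13.7, 30.4 and 20.7 in H8 and 11.8, 10.1 and 7.68 in H24. TNFAIP6 (TSG-6), a hyaluronan-binding protein induced by TNF, was at 12.7, 33.2 and 7.45 FPKM in H8 and 2.31 to 5.0 elsewhere. ITGBL1, an integrin-like secreted protein, was at 12.1, 39.4 and 15.3 FPKM in H8 with at most 10.3 elsewhere. The H8 mean of tissue factor was thus 2.19 times the larger other mean and that of TNFAIP6 4.38 times. FAM180B and an unnamed row inside the RefSeq interval of SLIT2 completed the role, with H8 means of 8.56 and 5.24 FPKM.

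Cytoskeleton and cell contact genes came to 10 rows. FLNC, filamin C, an actin crosslinker of striated muscle, was at 93.1, 91.1 and 73.5 FPKM in NC, 170, 521 and 110 in H8 and 56.1, 94.5 and 18.3 in H24. GJA1, connexin 43, a gap junction protein of smooth muscle and endothelium, was at 26.4, 42.8 and 35.6 FPKM in NC, 191, 254 and 67.4 in H8 and 31.5, 17.1 and 31.3 in H24. FLNC leaned on H8 replicate 2, whereas GJA1 was far above the other groups in both replicates 1 and 2. GJC1, connexin 45, was lower, at 5.44, 12.9 and 9.12 FPKM in H8 against 3.01 to 4.28 elsewhere.

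FILIP1L, a filamin A interacting protein that restrains cell migration, was at 40.5, 34.7 and 37.9 FPKM in NC, 97.8, 71.4 and 70.8 in H8 and 31.6, 22.8 and 11.2 in H24, with H8 libraries close together. DYNLL1, a dynein light chain, was at 78.9, 111 and 111 FPKM in H8 and at 31.3 to 59.6 elsewhere. ACTN2, the sarcomeric α-actinin, was at 17.7, 16.4 and 3.98 FPKM in H8 and 0.637 to 2.86 elsewhere, which is 6.15 times the NC mean. FLNC and ACTN2 are best known from striated muscle, but skeletal muscle markers stayed near 0: 9 of the 10 in the table were under 1 FPKM in every H8 library, their sum was 0.741 to 3.04 FPKM in H8, and 4 of 6 cardiac markers were at 0 in all H8 libraries.

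Some genes were nearly silent outside H8. CLDN6, a tight junction claudin of embryonic epithelium, was at 0.147, 3.74 and 0.794 FPKM in H8, while 4 of the other 6 libraries were at 0 and the rest at 0.0389 and 0.0058. It had 9, 202 and 48 estimated counts in H8, 3 in all of NC and 1 in all of H24, too few there to give a fold. LRRN1, a leucine-rich neuronal membrane protein, was more even, at 1.04, 0.753 and 1.27 FPKM in H8 with at most 0.160 elsewhere. CLDN6 lies 3032 bp from TNFRSF12A on chromosome 3, on the opposite strand. THOC6, 1956 bp from TNFRSF12A on the same strand and no member of the list, had means of 2.48 FPKM in NC, 7.81 in H8 and 3.24 in H24. HCFC1R1, 249 bp away on the opposite strand, had means of 12.4, 21.2 and 12.2 FPKM. BICDL2 (0.0942, 0.875 and 0.132 FPKM) and CLDN9 (0, 0.0276 and 0), also within 5 kb of TNFRSF12A, had their highest mean in H8 at levels under 1 FPKM. The rule fixed the H8 peak of CLDN6, and the share of all rows with their highest mean in H8 was not counted. Nothing is therefore read from these neighbours. RTN1, a reticulon of the endoplasmic reticulum in neurons, had an H8 mean of 3.28 FPKM, and SNPH, which anchors mitochondria in axons, one of 1.03.

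Transcription factors and regulators of RNA or chromatin were 9 rows, all at modest levels. NANOS1, a translational repressor of germ cells, was at 1.79, 1.63 and 1.35 FPKM in H8 and 0.129 to 0.304 elsewhere, among the most even of the 62. SOX4, a factor of progenitor cells, was at 2.40, 6.98 and 5.96 FPKM in H8 and 0.821 to 2.36 elsewhere, so its groups were separated by a factor of only 1.02. TAF5L, a subunit of histone acetylation complexes, ZBTB21, a zinc finger repressor, NUFIP2, an RNA-binding protein, and the developmental factors TWIST2 and ETV2 had H8 means between 1.1 and 15.5 FPKM.

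Signalling proteins were 5 rows with H8 means of 1.08 to 10.0 FPKM: RASSF8, RGS7BP, which tethers RGS proteins, the adenylyl cyclase ADCY2, FAM110B and the Wnt receptor FZD9. Enzymes and transporters were 9 rows with H8 means of 1.15 to 32.7 FPKM. They included the glycosyltransferases B3GNT2 and GALNT16, the magnesium handling proteins CNNM2 and NIPAL1, riboflavin kinase (RFK), the serine synthesis enzyme PSPH, HMGCLL1, NME7 and MFSD4B. CNNM2 was at 11, 34.1 and 8.82 FPKM in H8 and 3.20 to 5.51 elsewhere, and MFSD4B at 0.537, 3.20 and 0.670 in H8 with at most 0.387 elsewhere. Both were above all others in H8 replicate 2 by a wide margin. The MFSD4B row also spans SLC16A10, so its reads may belong to a solute carrier. The last 3 rows, the transposon-derived PGBD2 and TIGD3 and the small nucleolar RNA SNORA55, were the only role in which no row was highest in H8 replicate 2.

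At the edge of the rule, GALNT16, FAM110B and TAF5L stood just inside with ratios of 2.0, 2.01 and 2.02. PDLIM3, RASL11B and JMJD6 stood just outside with 1.99, 1.97 and 1.96 while meeting every other demand. Of the 13 rows set aside by name, the 6 with the highest H8 means were CCN2 (715 FPKM against 186 in NC and 219 in H24), HSPB1 (569 against 274 and 204), ATF3 (546 against 66.0 and 57.5), CCN1 (487 against 153 and 120), HSPA8 (305 against 77.3 and 102) and DNAJB1 (192 against 29.0 and 34.8). HSPB1, HSPA8 and DNAJB1 are chaperones or co-chaperones, ATF3 is a transcription factor that pairs with JUN, and CCN1 and CCN2 are matricellular proteins.

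Before any names were left out, the rule gave 75 rows with H8 on top, 39 with NC on top and 546 with H24 on top. A mirror form with H8 at the bottom, which asked for at least 1 FPKM in both other groups, gave 82. Rows that peak at 8 weeks were thus fewer than those that peak at 24 weeks. No test of these counts was made. In the fits over all genes (edgeR's quasi-likelihood test), 60 of the 62 passed a log2 fold change over 1 with an unadjusted p under 0.05 for H8 against NC, where the share over all genes was 5.11%, and 56 did so for H8 against H24, where it was 3.05%. None passed as lower, where the shares over all genes were 2.27% and 7.22%. These contrasts chose the genes and nothing is read from the counts. None of the 62 passed an adjusted p under 0.05 in either fit (Benjamini-Hochberg, background 0.014% and 0.0%). DESeq2 put 49 and 45 of them below it at any fold change, against 815 of 14336 and 714 of 14788 over all genes. As the contrasts chose the genes, nothing is read from these counts either.

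The comparison of H24 with NC was not itself part of the rule, but the rule capped the levels of both groups and removed genes that stayed high at 24 weeks, so its counts are a description and are not read against the shares over all genes. It asks whether the aorta after 24 weeks of the diet differed from control in the genes that peaked at 8 weeks. None of the 60 genes that could be tested passed the thresholds in either direction, and their levels in H24 lay on both sides of NC. CLDN6 and LRRN1 were too low to be tested. Over all 14828 genes tested, 9.95% were higher in H24 and 1.52% lower by the same thresholds (edgeR, unadjusted p), and 0.0% passed an adjusted p. The median log2 fold change of the 60 was -0.04, between -0.94 and 0.90, with 27 genes higher and 33 lower in H24. Over all genes the median was 0.01.

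JUND and NIPAL1 alone had an unadjusted p under 0.05. JUND was at 176 ± 34.0 FPKM in NC and 101 ± 31.2 in H24 (mean ± SD, n = 3 each), a log2 fold change of -0.82 (SE 0.31, edgeR unadjusted p = 0.0334, adjusted p = 0.320), and all 3 H24 libraries were below all 3 of NC. NIPAL1, a magnesium transporter, was at 1.03 ± 0.0204 and 0.569 ± 0.223 FPKM, a log2 fold change of -0.89 (SE 0.37, unadjusted p = 0.0489, adjusted p = 0.359), also without overlap. Neither held after adjustment. DESeq2 added FILIP1L with an unadjusted p of 0.0473 and left none with an adjusted p under 0.05.

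H24 lay below NC without overlap in 4 of the 60 genes (JUND, FILIP1L, TP53BP2 and NIPAL1) and above it in 1 (GJC1), where the shares over all genes tested were 7.8% and 12.8%. By role, 5 of the 6 chaperone rows were estimated higher in H24, with a median log2 fold change of 0.44, among them CRYAB at 0.38 (SE 0.25) and HSP70.2 at 0.50 (SE 0.52). Over all 14828 genes, 7499 were estimated higher and 7329 lower. The 5 include the rows opposite CRYAB and HSPB1, whose reads cannot be told apart from those genes. HSPB1 itself had a mean of 204 FPKM in H24 against 274 in NC. The whole heat shock lists described below had medians of -0.15 (excluded names) and -0.15 (other names). All 5 signalling rows were estimated lower, with a median of -0.65, and so were 9 of the 12 rows of the mixed AP-1 and feedback role, with a median of -0.19. None of these estimates passed the test, and the smallest adjusted p over the 60 was 0.320.

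**Figure D4:**
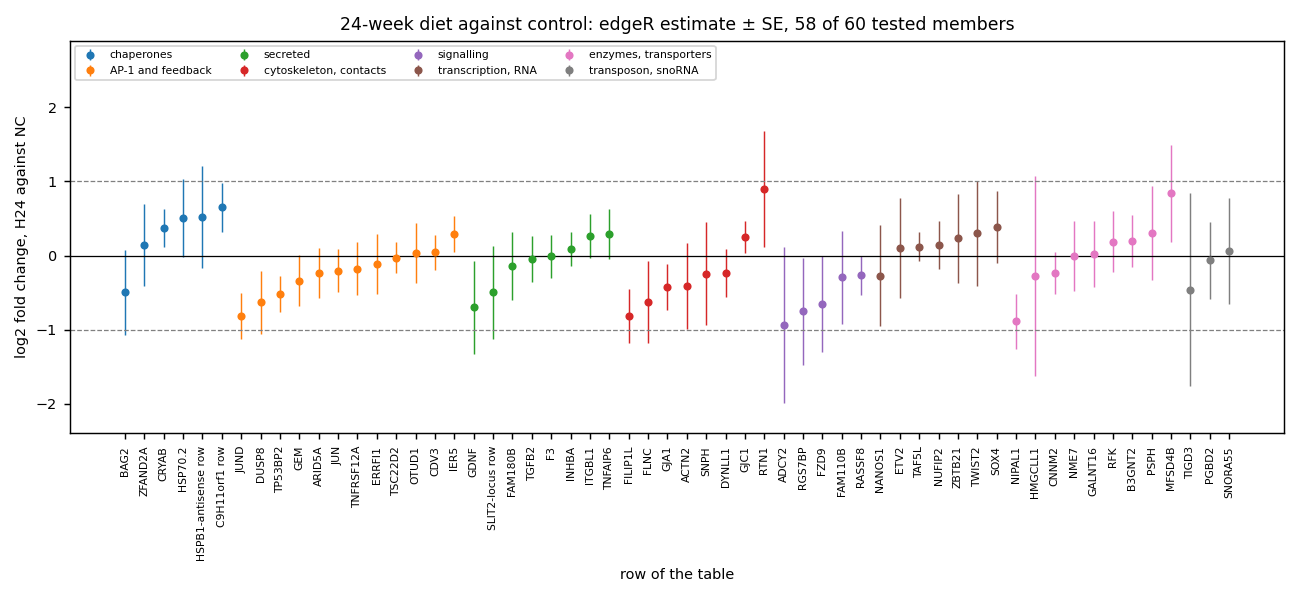
Log2 fold change of H24 against NC (edgeR estimate, bars ± SE, n = 3 libraries per group) for 58 of the 60 tested genes, ordered within each role; dashed lines mark -1 and 1. All 58 points lie between the dashed lines, with the lowest at -0.94 (ADCY2) and the highest at 0.90 (RTN1).

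Single H24 libraries moved this comparison. Without H24 replicate 2, FLNC (-1.27), JUND (-1.06), DUSP8 (-1.17) and RGS7BP (-1.71) passed the unadjusted thresholds as lower in H24 (log2 fold changes). Without H24 replicate 1, FILIP1L (-1.14) and NIPAL1 (-1.21) did so, and without H24 replicate 3, RTN1 (1.41) passed as higher. The adjusted p of these genes lay between 0.145 and 0.255 (edgeR). Calls over all genes moved as well. Lower calls were 456 of 14775 without replicate 2 and 406 of 14829 without replicate 1, against 225 of 14828 with all libraries. Higher calls were 946 of 14578 without replicate 3, against 1475. The median of the 60 was -0.25 without replicate 2 and 0.03 without replicate 3.

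Other genes of the same pathways were counted over whole gene lists, which can hold rows that the rule had chosen or set aside by name. In the list of heat shock and DNAJ genes, whose names the rule leaves out, 10 of 26 tested genes passed as higher in H8 than in NC by the unadjusted thresholds (background 5.11%) and 0 by an adjusted p, with a median log2 fold change of 0.58. They were BAG3, DNAJA1, DNAJA4, DNAJB1, DNAJB4, HSPA1L, HSPA4, HSPA8, HSPB1 and HSPH1. All of these but HSPA1L and HSPH1 had met the whole rule and were set aside only by name. The rule thus fixed their calls, and the count is a description that is not read against the background. None of the 26 passed for H24 against NC. The list summed to 1120 to 1302 FPKM in NC, 1829 to 3225 in H8 and 1011 to 1269 in H24. Its H8 libraries did not overlap the others, but the rows set aside by name are part of the sum. Since the rule placed those rows highest in H8, nothing is read from this gap. In the heat shock list under other names, CRYAB, ZFAND2A and BAG2 are 8-week genes, whose calls the rule fixed. Only 1 of the 25 others passed (background 5.11%), CHORDC1, an HSP90 co-chaperone. Without H8 replicate 2, 7 genes of the heat shock and DNAJ list passed, with a median of 0.57. The whole list under other names went from 4 to 3 genes, and its median from 0.28 to 0.14.

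The immediate early lists were described next. Outside the excluded names and without JUND, IER5 and DUSP8 of the 62, 9 of 41 tested genes passed as higher in H8 than in NC (background 5.11%), among them MYC, KLF4, DUSP1 and ARC, with a median log2 fold change of 0.63. The median of the whole list was 0.71, but 0.27 without H8 replicate 2. The list summed to 1572 to 4031 FPKM in NC, 2354 to 5067 in H8 and 1689 to 2862 in H24, and the sums of the excluded names (FOS, JUN, EGR1 and the like) were 822 to 2499, 1646 to 5892 and 643 to 1743. In both lists the H8 range overlapped that of NC. The heat shock and immediate early sums hold different shares of rows that the rule placed highest in H8, so they are not compared.

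The other lists were counted without the 62 genes, whose calls the rule fixed, and against a share of 5.11% over all genes (H8 higher than NC, unadjusted thresholds). Since the rule took the genes of one pattern out of each list, the counts are descriptions. Growth factor genes outside the 62 passed in 6 of 24 cases, with a median log2 fold change of 0.40. NF-κB targets and cytokines outside the 62 passed in 5 of 25, with a median of 0.86. Without H8 replicate 2 the whole lists, with INHBA, TGFB2, GDNF, TNFRSF12A and TNFAIP6 of the 62, went from 9 to 5 and from 7 to 2 genes, and their medians from 0.60 and 0.88 to 0.14 each. For H24 against NC, 6 of 24 growth factor genes and 9 of 24 NF-κB targets and cytokines outside the 62 also passed as higher (background 9.95%).

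None of the other lists held more than 1 of the 62. Matrix protease and matricellular genes passed in 5 of 31 (3 without H8 replicate 2), hypoxia genes in 3 of 25 (1), oxidative stress genes in 2 of 16 (1), p53 targets in 2 of 14 (1) and endoplasmic reticulum and integrated stress genes in 1 of 28 (0). Glucocorticoid response genes outside the 62 passed in 3 of 12, and the whole list, with ERRFI1 of the 62, went from 4 to 2 genes without that library. Of 25 cell cycle genes 0 passed in edgeR, and 2 did so without H8 replicate 2. For H24 against NC (background 9.95%), 10 of 32 matrix protease and matricellular genes, 4 of 25 hypoxia genes and 4 of 16 oxidative stress genes passed as higher. So did 2 of 14 p53 targets, 2 of 28 endoplasmic reticulum and integrated stress genes, 2 of 12 glucocorticoid genes outside the 62 and 0 of 25 cell cycle genes.

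Cell type markers moved with the groups to different degrees. Fibroblast markers (9 genes) summed to 2443 to 3190 FPKM in NC, 3834 to 6122 in H8 and 2536 to 3246 in H24, so their sum was highest in H8 without overlap. Taken singly, only 1 of the 9 lay above both other groups without overlap. Against H24, 0 of 9 passed the unadjusted thresholds as higher in H8 and LUM passed as lower. For H24 against NC, LUM and PDGFRA passed as higher. COL1A1, MFAP5 and PI16 of 9 passed the unadjusted thresholds against NC, but 0 of 9 did without H8 replicate 2, where the median log2 fold change went from 0.87 to 0.43. Macrophage markers (10 genes) summed to 25.9 to 35.0, 33.4 to 191 and 184 to 1997 FPKM, and 6 of 10 passed as higher in H8 than in NC (8 without H8 replicate 2). Smooth muscle markers of H8 lay within 10465 to 13976 FPKM and 1 of 10 passed (0 without H8 replicate 2). The part of fibroblasts and macrophages in the 8-week genes was not tested.

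**Figure D5:**
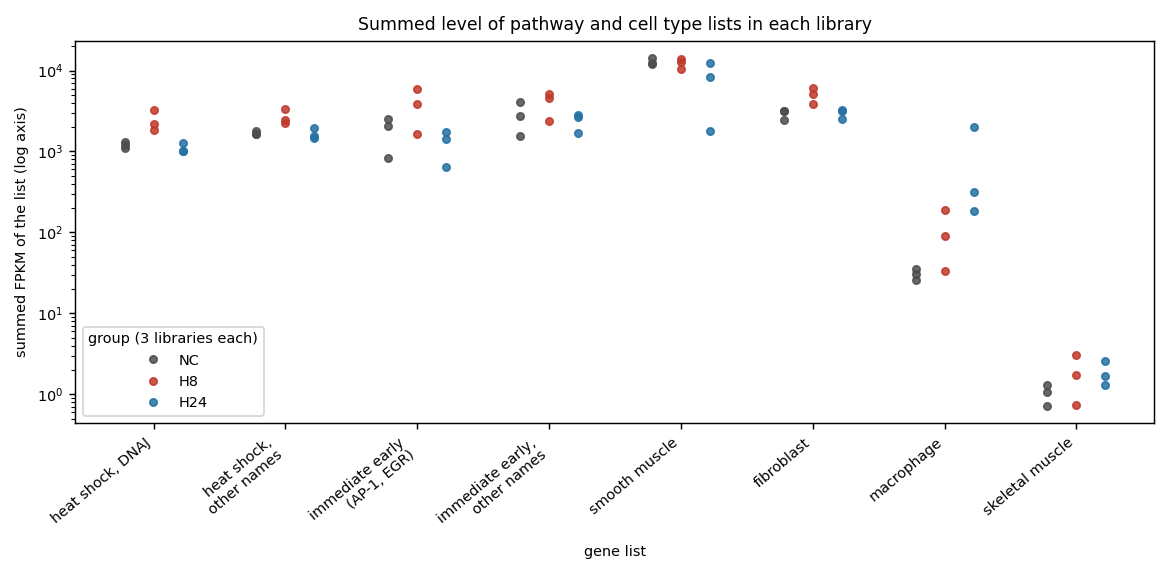
Summed FPKM on a log axis of 4 pathway lists and 4 cell type lists in each library (points, 3 per group). The H8 points lie above all others for both heat shock lists and for fibroblast markers, overlap NC for both immediate early lists and smooth muscle, and for macrophage markers spread from the NC level to the H24 level. The heat shock and immediate early sums include rows that the rule placed highest in H8.

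The 62 rows shared few features beyond their levels. They lie on 18 chromosomes, with 8 on chromosome 3 (12.9%, against 7.42% of the 11900 expressed rows). Their median span in the genome was 15359 bp against 25970.5 bp, and 54.8% had a single transcript against 41.9%. Of 56 with Gene Ontology terms, 14 (25%) were annotated to the plasma membrane (background 12.3%) and 3 to growth factor activity (background 0.472%). Of 27 with KEGG pathways, 4 were in MAPK signalling (background 4.43%) and 3 in Hippo signalling (background 2.32%). These shares are descriptions and were not tested.

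How firmly a gene belongs to the list differed. Under 2 other scalings and with each of the 9 libraries left out in turn, 26 of the 62 passed the rule every time, among them HSP70.2, CRYAB, ZFAND2A, JUN, GEM, ERRFI1, OTUD1, GJA1, ACTN2, TNFRSF12A, IER5, TGFB2, GDNF and NANOS1. Another 21 failed once, and GALNT16, the row nearest the threshold, passed 5 of 11 times. Leaving out H8 replicate 2 mattered most to who belonged, since 39 of the 62 remained and 23 did not, including FLNC, INHBA, F3, CLDN6, SOX4 and TP53BP2.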

How the data were processed

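RNA-seq libraries of 9 minipig aortas were grouped as their labels give (NC, H8, H24, 3 each). Per the study's methods, the authors used RNA with a high integrity number, poly(A) selection and paired-end sequencing, aligned with HISAT 2.0 (build Sscrofa11.1) and computed FPKM in StringTie 1.3.0. The submitters' processing notes also list Bowtie 0.12.2 and the mouse build mm8, but 13753 of 13763 names unique in the table and in RefSeq Sscrofa11.1 had overlapping intervals. The extraction label speaks of an adipose type, while the tissue label is abdominal aorta. The deposited table gives FPKM and a whole-number estimated count per row and library; how the authors derived the counts is not given in the sources used here.

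The rule was applied to FPKM as deposited. The 62 genes, the roles and the 16 pathway and 15 marker lists were chosen with earlier results of these data known. Named genes were the 12 named rows of highest H8 mean, the 12 of highest ratio, list members, rows next to the threshold and 6 of those set aside by name. All others were named after their values were seen, to account for the rows. A few results, among them those of 2 of the 62 rows and of 1 pathway list, are not reported here. Rows without a name were identified through a table of gene names, their description or RefSeq intervals.

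Estimated counts were fitted with edgeR 4.0.16 (R 4.3.3; data.table, version 1.17.8), 2 groups at a time, with TMM, a mean FPKM of at least 0.1 and the two-sided quasi-likelihood test. A call needed a log2 fold change beyond 1 and an unadjusted p under 0.05 (the study's thresholds) or a Benjamini-Hochberg adjusted p under 0.05 over all genes tested. Per the study's methods, the pigs sequenced in NC and H24 were picked at random from their groups; for H8 this is not given in the sources used here. The p-values measure the spread between these libraries. Alternatives were DESeq2 1.42.0, limma 3.58.1 on log2(FPKM + 0.1) and log2(FPKM + 1), other scalings and filters, a replicate block, libraries left out and other forms of the rule. No library pair agreed within sampling noise. Promoter and protein sequences were not used here.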

Additional observations from a re-analysis of the deposited data

How the results depend on the processing

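The number of genes passing the rule was 60 after rescaling FPKM to TPM and 91 after median-ratio scaling of FPKM, in which all 62 remained. It was 91 with a minimum of 0.1 FPKM, 27 at 3 times both means and 175 without the demand that groups do not overlap. Leaving out 1 library gave 54 to 125 genes (104 without H8 replicate 1, 125 without H8 replicate 3, 54 without H8 replicate 2). Matching the excluded names also through the reference table and descriptions, chosen after seeing the data, removed JUN, HSP70.2 and MFSD4B and left 59.

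Calls of H24 against NC among the 62 ran from 0 to 1 higher and 0 to 4 lower when 1 library was left out, and were 0 in both directions in the other settings run. Over all genes, calls were 1475 higher and 225 lower, with 946 to 1795 and 137 to 456 when 1 library was left out, 714 and 141 with limma on log2(FPKM + 1), and 141 lower with a filter at 1 FPKM. H8 against H24 over all genes gave 451 higher and 1068 lower calls, with 248 to 684 and 547 to 1407 without 1 library. The causes were not tested. Adjusted calls depended on the tool: edgeR gave 0, 4 and 2 genes for H24/NC, H8/NC and H8/H24 at any fold change, and DESeq2 1004, 815 and 714. Deviations of same-numbered libraries had correlations of only -0.05 to 0.08, and those of differently numbered libraries of -0.14 to 0.14. No pairing by number was thus seen, but 3 libraries per group cannot exclude one. With the replicate block, H24 against NC gave 1114 higher and 250 lower calls, 0 and 0 among the 62, and a median of -0.11. The 3 pigs per group and the low counts of 8 genes limit precision.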

Other observations

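Some genes outside the 62 were high in H8 replicate 2 alone, and are named here after their values were seen. ANKRD1, a muscle ankyrin repeat protein and YAP target, was at 36.4 FPKM there and at most 0.623 in the other 8 libraries. XIRP1, an actin-binding protein of muscle attachment sites, was at 9.38 FPKM against at most 0.416, and ARC, an SRF target, at 272 FPKM against at most 23.9. Since H8 replicates 1 and 3 did not stand above NC and H24 for these genes, or not in full, the rule left them out. Smooth muscle markers of that library summed to 10465 FPKM, the lowest of H8, and fibroblast markers to 6122, the highest of all 9 libraries.

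Over all genes, 2.27% passed as lower and 5.11% as higher in H8 than in NC by the unadjusted thresholds of edgeR. NR1D2, PER3 and TEF passed as lower and NFIL3 as higher among 18 clock genes tested (0 higher without H8 replicate 2), and INSIG1 passed as higher and FADS1 as lower among 28 sterol and fatty acid synthesis genes. Adipocyte markers ADIPOQ, CIDEC and PLIN1 passed as lower among 8 tested. Of these genes ADIPOQ, the adipocyte hormone adiponectin, alone had an adjusted p under 0.05 in edgeR (log2 fold change -6.39, SE 0.55, adjusted p = 0.0206). It was at 4.44, 14.6 and 6.83 FPKM in NC, at 0.0954, 0.106 and 0.0789 in H8, and at 7.24, 0.0705 and 0.416 in H24, so 2 of the H24 libraries were also far below NC.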
